A study of Mus musculus with 6 samples.

Results

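In mouse intestinal organoids treated with arachidonic acid (AA), 1750 chromatin regions were more open than in every organoid library treated with prostaglandin E2 (PGE2) or vehicle. They were picked by their own values. A consensus peak on an autosome was a member when its mean over the 6 libraries was at least 1 CPM (the peak's count per 1000000 counts in its library) and the lower AA value was at least 1.3 times the highest of the 4 PGE2 and Vehicle values. Peaks where both treatments stood at least 1.5 times above Vehicle were left out, which removed 480 of the 2230 that passed the fold. The members were 2.1% of the 83180 autosomal peaks with a mean of at least 1 CPM and 1.93% of all 90823 peaks. Because AA against Vehicle and AA against PGE2 chose them, both differences are given below as descriptions without a test.

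The assay was ATAC-seq: a transposase cuts and tags accessible DNA, here in epithelial cells sorted from organoids grown from mouse crypts. The AA organoids received 25 µM AA, the PGE2 organoids 50 nM PGE2 and the Vehicle organoids vehicle, each for 3 days and with 2 libraries. The series' design text names a dimethyl PGE2 where the treatment protocol has PGE2, so the compound is called PGE2 here. All 3 groups shared the medium, which held EGF, Noggin, R-spondin and the compounds CHIR-99021 and Y-27632. The labels give no strain, genotype, sex or age and do not say whether the libraries of a group came from separate cultures, so p-values measure only the spread between these libraries, which may be technical.

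Arachidonic acid is a polyunsaturated fatty acid held in membrane phospholipids. Phospholipases A2 release it, and cyclooxygenases, lipoxygenases and other enzymes turn it into eicosanoids, among them PGE2, which acts on EP receptors that signal partly through cyclic AMP. In the gut epithelium PGE2 is known for its part in crypt regeneration, while AA itself also enters lipid droplets, lipoproteins and membranes. Open chromatin away from gene starts often marks enhancers, which are more specific to a cell state than promoters are.

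Library totals ran from 12374232 to 14236985 counts. Peaks with an edge within 1 kb of where a protein-coding gene starts or ends (gene-end peaks) took 35.3% and 35.8% of the counts in the AA libraries, 37.4% and 38.9% in the PGE2 libraries and 34.9% and 34.4% in the Vehicle libraries. The PGE2 libraries thus gave a smaller share of their counts to all other peaks, and with CPM taken over those other peaks alone 1293 peaks met the rule, 1265 of them members (72.3%). The 2 PGE2 libraries also differed more from each other (chi-square per degree of freedom 1.55 over all peaks) than the AA libraries (1.12) and the Vehicle libraries (1.10) did. At gene-end peaks the 17 intestinal identity factors with such a peak, Cdx, Hnf and Gata genes among them, summed to 882 to 900 CPM in every library. The immune markers had such a peak only at Cd14, Itgam and Itgax (59.5 to 65.1 CPM). Both other marker sums were lowest in AA without overlap: the endothelial one was 6.38 to 6.81 CPM in AA, 7.97 to 9.12 in PGE2 and 7.44 to 8.27 in Vehicle, and the stromal one 28.6 to 29.9 CPM in AA, 31.6 to 31.7 in PGE2 and 32.2 to 34.0 in Vehicle. Their part in the results was not tested.

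Promoters were a small part of the set. Those lying wholly inside a member are shown here, picked by how much of them a member covered and not by margin. RefSeq's promoter windows (GRCm38.p6, the assembly of mm10) run from 250 bases before to 50 bases after a start, and 16 members held at least 200 bases of 17 windows. Of 11 such windows of protein-coding genes, 5 were covered whole and are printed below, 5′ to 3′ on the gene's strand, with matches to any of 20 searched motifs in capitals. They are the starts of Isx (an intestinal homeobox factor), Pla2g2e (a secreted phospholipase A2), Ptprh (a receptor phosphatase of the intestinal brush border), Adtrp (a hydrolase of fatty acid esters) and an internal start of Nr6a1 (an orphan nuclear receptor).
Isx, chr8:74872924-74873223, plus strand: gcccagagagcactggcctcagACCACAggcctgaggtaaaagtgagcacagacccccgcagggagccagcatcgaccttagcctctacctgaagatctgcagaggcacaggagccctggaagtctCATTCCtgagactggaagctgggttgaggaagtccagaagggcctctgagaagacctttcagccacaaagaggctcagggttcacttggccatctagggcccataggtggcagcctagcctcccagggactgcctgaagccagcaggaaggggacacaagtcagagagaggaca
Pla2g2e, chr4:138877692-138877991, plus strand: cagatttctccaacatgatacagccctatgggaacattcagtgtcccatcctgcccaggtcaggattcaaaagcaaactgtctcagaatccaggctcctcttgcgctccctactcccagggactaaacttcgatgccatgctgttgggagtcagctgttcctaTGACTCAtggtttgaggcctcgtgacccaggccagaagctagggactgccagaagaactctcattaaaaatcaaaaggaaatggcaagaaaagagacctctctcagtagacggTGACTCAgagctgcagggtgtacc
Ptprh, chr7:4603992-4604291, minus strand: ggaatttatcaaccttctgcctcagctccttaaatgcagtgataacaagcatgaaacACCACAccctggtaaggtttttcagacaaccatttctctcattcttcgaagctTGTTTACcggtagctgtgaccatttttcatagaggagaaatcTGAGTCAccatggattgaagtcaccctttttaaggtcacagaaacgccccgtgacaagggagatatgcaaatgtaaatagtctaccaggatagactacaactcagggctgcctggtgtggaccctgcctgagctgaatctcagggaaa
Adtrp, chr13:41847567-41847866, minus strand: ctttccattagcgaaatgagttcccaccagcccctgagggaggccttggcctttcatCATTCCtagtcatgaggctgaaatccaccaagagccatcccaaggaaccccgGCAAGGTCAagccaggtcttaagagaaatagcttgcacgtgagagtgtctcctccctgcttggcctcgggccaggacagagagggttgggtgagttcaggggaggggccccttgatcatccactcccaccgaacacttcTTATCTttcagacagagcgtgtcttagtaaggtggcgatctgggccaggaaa
Nr6a1, chr2:38784466-38784765, minus strand: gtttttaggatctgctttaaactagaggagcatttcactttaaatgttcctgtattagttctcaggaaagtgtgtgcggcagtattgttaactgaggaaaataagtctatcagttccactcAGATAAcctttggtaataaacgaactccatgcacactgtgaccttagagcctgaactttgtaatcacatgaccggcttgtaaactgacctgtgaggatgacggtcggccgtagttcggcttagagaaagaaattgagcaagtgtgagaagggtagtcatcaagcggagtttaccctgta

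The capitals in the Isx window are a RUNX word (TGTGGT, here as its complement) and a TEAD word (GGAATG, here as its complement). The Pla2g2e window held the AP-1 word TGANTCA at both places in capitals, 87 bases before the start site and 26 after it. In the Ptprh window the capitals are a RUNX word, a FOXA word (TGTTTAC) and an AP-1 word, those of Adtrp are a TEAD word, an NFE2L2 word (TGACNNNGC) and a GATA word (AGATAA), and that of Nr6a1 is a GATA word. Both strands were searched. Over the 17 windows under members, the AP-1 word was in 7 (41.2%), against 5.56% of the 13139 windows under autosomal peaks with a mean of at least 1 CPM and 7.81% of all 32851 windows. The GATA word was in 5 (29.4%), against 6.04% and 11.2% of those sets. The 2 Adtrp windows are among these 5 and share the same GATA match. The KLF and SP word GGGCGG was in 0 of 17, against 64.3% and 35.7%. The 17 also include starts of long noncoding RNA genes. Among them Alkbh3os1, Gm30056, Gm32861 and Gm41497 held the AP-1 word, as did the protein-coding Pla2g2e, Ptprh and Bpifc. The median GC content was 53.3% in the windows under members, 61.3% under all such peaks and 52.7% over all windows. Of the 17 windows 2 are overlapping starts of Adtrp, so these shares describe few sequences.

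Across the set the AA libraries stood alike and the others below them. The members took 1.35% and 1.36% of the counts in the AA libraries, 0.866% and 0.858% in the PGE2 libraries and 0.698% and 0.728% in the Vehicle libraries, with 95% Wilson intervals from 0.693% to 0.732% for Vehicle and from 1.34% to 1.37% for AA that cover counting error only. The median member had 4.85 and 4.85 CPM in the AA libraries, 2.84 and 2.92 CPM in the PGE2 libraries and 2.26 and 2.33 CPM in the Vehicle libraries. In reads this was 69 and 60 in AA, 37 and 39 in PGE2 and 29 and 30 in Vehicle. The median of all autosomal peaks with a mean of at least 1 CPM was 5.08 to 5.35 CPM in all 6 libraries, so the median member lay below that level in every library, by the least in AA. Members were 3.15% of the peaks with a mean of 1 to 2 CPM, 2.63% at 2 to 5, 2.28% at 5 to 10, 1.58% at 10 to 20 and 0.439% above 20 CPM.

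**Figure D1:**
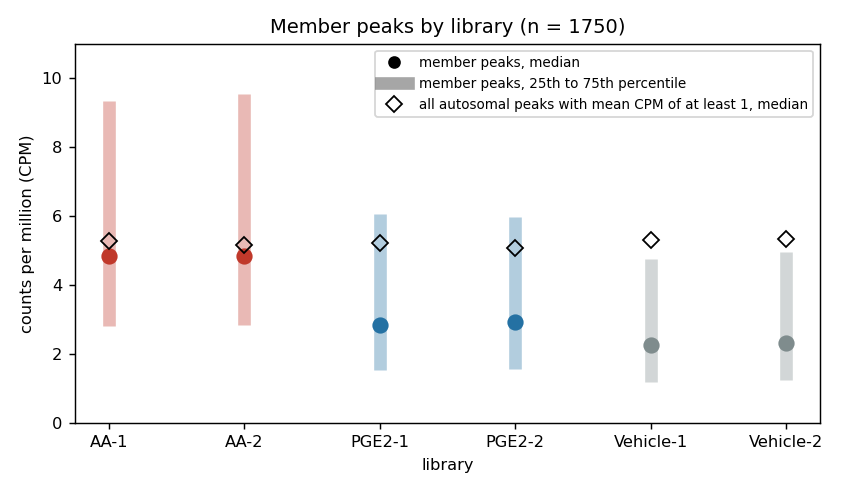
CPM (y axis) of the 1750 members in each library (x axis), with the median as a filled point and the 25th to 75th percentile as a bar; open diamonds are the median of all autosomal peaks with a mean of at least 1 CPM. The AA medians are 4.85 CPM in both libraries, against 2.84 and 2.92 in PGE2 and 2.26 and 2.33 in Vehicle, while the diamonds stay between 5.08 and 5.35.

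Most margins were modest. The lower AA value was a median of 1.42 times the highest other value, and it was at least 1.5 times at 560 members, at least 2 times at 56 and at least 2.5 times at 8. In edgeR's quasi-likelihood fit over all 89347 tested peaks, the median log2 difference was 1.07 for AA over Vehicle and 0.70 for AA over PGE2. The rule fixes these directions, and no count of calls is given for either difference at members.

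At most members PGE2 lay between AA and Vehicle, nearer to Vehicle. On a log2 scale from the Vehicle mean to the AA mean, the PGE2 mean sat at a median of 29.3% of the way (25th to 75th percentile 12.2% to 43.5%). It was above the Vehicle mean at 1489 members and below it at 261. Both PGE2 libraries were above both Vehicle libraries at 1024 members (58.5%), against 26.9% of all peaks, and both were below at 79 (4.51%), against 34.5%. The exclusion of peaks high in both treatments limits the upper side, so that share is partly set by the rule. The fold treats PGE2 and Vehicle alike. Both shares come from libraries that the rule used and are given as descriptions.

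At an adjusted p under 0.05, PGE2 was called higher than Vehicle at 376 members (21.5%) and lower at 1, against 14.3% and 10.6% of all tested peaks, with a median log2 difference of 0.35 at members and -0.0023 over all. The number higher was 249 without PGE2 replicate 2, 168 without Vehicle replicate 1 and 74 by DESeq2. Called members had more counts, with median means of 10.2 CPM in AA, 6.37 in PGE2 and 4.16 in Vehicle, than the 1373 not called, with 3.996, 2.23 and 1.91 CPM. Among members with a mean of 1 to 2 CPM 7 of 487 were called, and above 20 CPM 32 of 67, while the median log2 difference was 0.35 and 0.22 in these bands. The share called among all peaks of each band was not computed, so these counts are not read as a trait of the members.

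**Figure D2:**
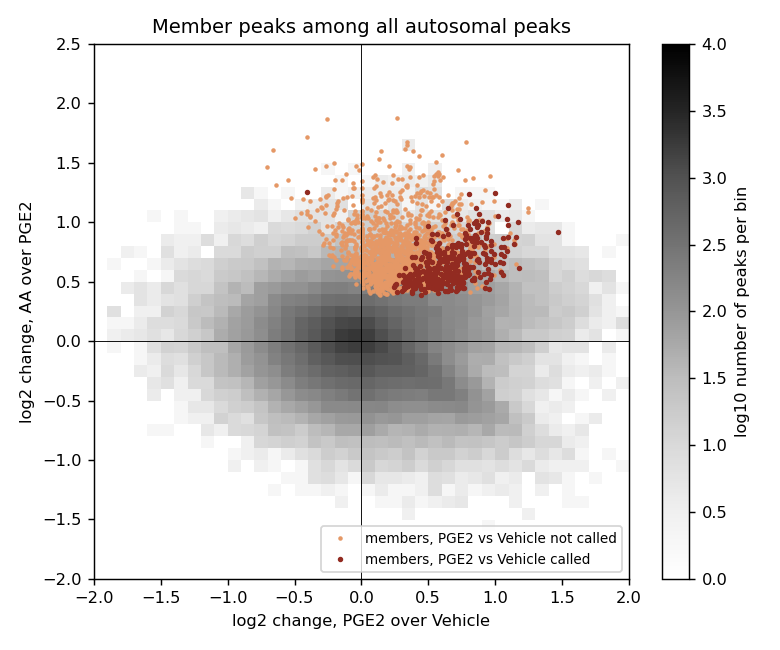
Log2 change of PGE2 over Vehicle (x axis) and of AA over PGE2 (y axis); grey squares count all autosomal peaks with a mean of at least 1 CPM (log10 scale), orange points are members with no call between PGE2 and Vehicle and dark red points are the 377 with one. The members lie above 0 on the y axis by the rule and spread to both sides of 0 on the x axis, with 376 of the calls to the right and 1 to the left.

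Among members, the clearest cases of a PGE2 value above Vehicle were the 5 with the smallest p. The rule had left out the 480 peaks with both treatments at least 1.5 times above Vehicle. A peak inside Fkbp8, which encodes a membrane immunophilin, had 26.3 and 26.0 CPM in AA, 17.8 and 19.3 in PGE2 and 10.8 and 12.01 in Vehicle, and PGE2 was higher than Vehicle by 0.75 ± 0.11 (log2, SE; edgeR adjusted p = 1.13e-06). The other 4 lay outside genes, 28829 bp from Poc1b, 44164 bp from Klhl31, 82586 bp from Tomm20 and 167974 bp from Cdkn2b, and the last had 24.4 and 24.4 CPM in AA, 18.1 and 17.5 in PGE2 and 9.44 and 12.1 in Vehicle. At these the 3 groups formed steps with no overlap, the upper step set by the rule and the lower picked by its small p. The single member called lower in PGE2 (chr15:62328374-62329143, nearest gene end that of Myc at 338397 bp) had 16.8 and 16.6 CPM in AA, 6.51 and 7.33 in PGE2 and 8.74 and 10.2 in Vehicle (log2 -0.40 ± 0.14 SE for PGE2 over Vehicle, adjusted p = 0.0305), and it was not called by DESeq2 or without PGE2 replicate 1 or Vehicle replicate 2.

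Members lay away from gene ends. A gene end was within 1 kb of 74 members (4.23%), against 18.4% of all autosomal peaks with a mean of at least 1 CPM. A protein-coding RefSeq start lay within 1 kb of the centre of 28 members (1.65%), against 13.5%. This share is over the 1692 members on chromosomes with listed starts. The gap for gene ends was present at each level of signal: 3.7% against 7.65% at 1 to 2 CPM, 4.1% against 8.91% at 2 to 5, 5.59% against 13.5% at 5 to 10, 2.53% against 24.2% at 10 to 20 and 7.46% against 44.9% above 20 CPM. Of the rest, 904 lay inside a protein-coding gene and 772 outside. The median distance from a member's centre to a gene end was 22427.5 bp, against 12117 bp, and 104 members (5.94%) were over 200 kb from any end, against 3.71%. Members were also narrower, with a median of 423 bp against 580 bp, but the gap was smaller among weak peaks. The medians were 292 against 299 bp at 1 to 2 CPM and 423 against 477 bp at 2 to 5. At 5 to 10 CPM they were 539 against 648 bp, at 10 to 20 683.5 against 806 and above 20 898 against 1095. Members were found on all 19 autosomes, with 52 to 151 on each.

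Isx, the intestine-specific homeobox gene that in mice restrains uptake and cleavage of carotenoids, carried 4 members among its 10 peaks within 50 kb. The promoter member (chr8:74871583-74873621), whose start sequence is the Isx window above, had 64.7 and 63.1 CPM in AA, 44.0 and 42.2 in PGE2 and 35.6 and 36.0 in Vehicle. In CPM, which is not divided by peak width, it was exceeded by 1 other member with a gene within 50 kb. PGE2 was above Vehicle there by 0.31 ± 0.07 (log2, SE; edgeR adjusted p = 0.000539, DESeq2 adjusted p = 0.0743). A second member, 2979 bp from the gene's end, had 15.3 and 14.4 CPM in AA, 8.04 and 7.62 in PGE2 and 6.47 and 6.43 in Vehicle, and its PGE2 and Vehicle values were not called apart (0.32 ± 0.15, adjusted p = 0.101). The third had 20.1 and 21.7, 13.4 and 12.9, and 11.3 and 14.1 CPM in AA, PGE2 and Vehicle, and the fourth 25.0 and 23.5, 16.1 and 17.0, and 16.5 and 17.6. PGE2 and Vehicle overlapped at both, and the call of PGE2 above Vehicle was made at the promoter alone of the 4.

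Factors of intestinal identity held more than the background share of members. Of 197 peaks at the genes of that list 11 were members (5.58%, against 2.1% of all autosomal peaks with a mean of at least 1 CPM): 4 at Isx, 2 each at Gata4 and Hnf4g and 1 each at Hnf4a, Klf5 and Prdm1. Hnf4g, which with Hnf4a drives enterocyte genes, had a member inside the gene (chr3:3640055-3640997) with 8.43 and 7.27 CPM in AA, 3.91 and 3.21 in PGE2 and 3.35 and 3.26 in Vehicle. The peak's PGE2 and Vehicle values nearly coincided (log2 0.15 ± 0.21 SE, adjusted p = 0.665). At Gata4, a factor of the proximal small intestine, the stronger member had 15.8 and 16.5 CPM in AA, 10.8 and 9.79 in PGE2 and 6.397 and 7.21 in Vehicle, with PGE2 above Vehicle by 0.64 ± 0.14 (adjusted p = 0.000381). Over the whole list PGE2 was called higher than Vehicle at 22 peaks and lower at 27 (11.2% and 13.7%), near the 14.3% and 10.6% of all tested peaks.

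**Figure D3:**
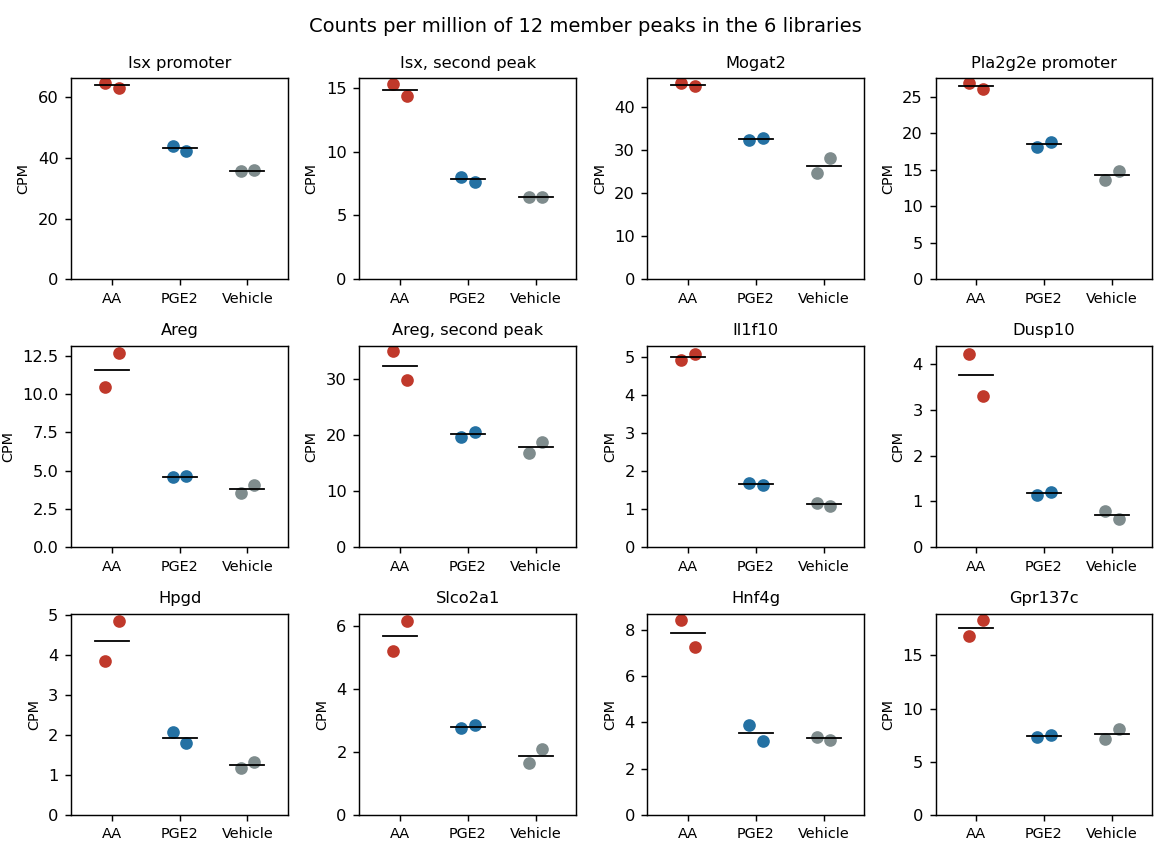
CPM (y axis) of 12 members in the 2 libraries of AA, PGE2 and Vehicle (x axis); points are libraries and lines are group means. In every panel both AA points are above the other 4, as the rule requires. Both PGE2 points are above both Vehicle points in every panel but those of Hnf4g and Gpr137c. PGE2 was called above Vehicle by edgeR at the Isx promoter, Mogat2 and Pla2g2e alone. Gpr137c has 7.36 and 7.47 CPM in PGE2 and 7.18 and 8.06 in Vehicle.

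Markers of absorptive enterocytes, the cells that take up nutrients, had 10 members among 148 peaks (6.76%), at Alpi, Dpp4, Fabp1, Fabp2, Hnf4a, Hnf4g, Slc2a2 and Slc5a1. PGE2 was called lower than Vehicle at 38 of the 148 peaks (25.7%, against 10.6% of all tested peaks) and higher at 4 (2.7%, against 14.3%). None of the 10 members was called between PGE2 and Vehicle. Slc5a1, the sodium-glucose cotransporter, had a member with 2.81 and 2.67 CPM in AA, 1.38 and 1.05 in PGE2 and 1.17 and 1.16 in Vehicle. The members of this list were highest in AA by the rule. Over all 148 peaks, members included, the median log2 difference was -0.09 for AA over Vehicle and 0.10 for AA over PGE2. Summed over gene-end peaks the list gave 477 and 483 CPM in AA, 474 and 480 in PGE2 and 554 and 565 in Vehicle. These sums were lower in both treatments than in Vehicle. Fewer cells of a type and less opening per cell cannot be told apart in these bulk libraries.

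Genes that take up and store fatty acids formed the largest listed group by count. Of 193 peaks 12 were members (6.22%), 2 each at Acsl3, Cd36 and Elovl6 and 1 each at Dgat2, Elovl7, Fabp1, Fabp2, Mboat1 and Plin2. In its medians the list as a whole was not shifted to AA. Over all 193 peaks, members included, the median log2 difference was -0.02 for AA over Vehicle and 0.01 for AA over PGE2. Over all tested peaks these medians were -0.02 and -0.01. Acsl3 activates long-chain fatty acids for lipid droplets, and its stronger member had 22.1 and 24.6 CPM in AA, 16.4 and 15.6 in PGE2 and 13.3 and 15.4 in Vehicle. Dgat2 makes triglyceride, and its member had 11.5 and 11.3 CPM in AA, 8.04 and 8.67 in PGE2 and 5.38 and 6.36 in Vehicle, with PGE2 above Vehicle by 0.55 ± 0.15 (log2, SE; adjusted p = 0.00447); the call was lost by DESeq2 (0.128) and without PGE2 replicate 2 (0.0575) or Vehicle replicate 1 (0.104). PGE2 was also called above Vehicle by edgeR at the weaker Acsl3 member (log2 0.50 ± 0.14 SE, adjusted p = 0.00691) and at that of Mboat1 (0.65 ± 0.19, adjusted p = 0.00836). At both Cd36 members (a fatty acid translocase gene) and at that of Fabp1 (a fatty acid binding protein gene) the PGE2 mean was below the Vehicle mean, without a call. The Fabp1 member had 3.44 and 3.31 CPM in AA, 1.46 and 1.72 in PGE2 and 2.11 and 2.25 in Vehicle (-0.41 ± 0.29, adjusted p = 0.332). The stronger Elovl6 member, at a gene that elongates saturated fatty acids, had 40.2 and 39.9 CPM in AA, 30.0 and 27.5 in PGE2 and 26.9 and 25.5 in Vehicle.

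One of the members with the most counts was 3649 bp from Mogat2, the monoacylglycerol acyltransferase gene of dietary fat absorption, with 45.7 and 44.9 CPM in AA, 32.3 and 32.8 in PGE2 and 24.7 and 28.1 in Vehicle. PGE2 was above Vehicle there by 0.35 ± 0.08 (log2, SE; adjusted p = 0.00107), a call lost by DESeq2 (0.0823) and without Vehicle replicate 1 (0.0882). Among PPAR targets and genes of fatty acid oxidation 5 of 138 peaks were members (3.62%), at Fabp1, Fabp2, Hadhb, Plin2 and Pparg. The Pparg member, 10848 bp from the gene of that lipid-sensing receptor, had 10.54 and 10.6 CPM in AA, 7.51 and 7.85 in PGE2 and 5.85 and 6.28 in Vehicle.

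Areg, which encodes the EGF receptor ligand amphiregulin, had 4 members among 10 peaks. The one with the widest margin (chr5:91148719-91150033, 944 bp from a gene end and outside the gene) had 10.47 and 12.7 CPM in AA, 4.60 and 4.63 in PGE2 and 3.51 and 4.03 in Vehicle. The strongest (chr5:91123461-91124889) had 34.98 and 29.9 CPM in AA, 19.6 and 20.6 in PGE2 and 16.8 and 18.8 in Vehicle. PGE2 and Vehicle were not called apart at any of the 4, with log2 differences of 0.22 to 0.60. Areg was the source of all 4 members at cyclic AMP and CREB target genes (4 of 108 peaks, 3.7%).

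The EGF family list had 6 members among 101 peaks (5.94%), the other 2 at Egfr and Errfi1. Egfr, the receptor itself, had a member 16663 bp from a gene end with 18.1 and 18.5 CPM in AA, 11.6 and 11.9 in PGE2 and 7.96 and 7.05 in Vehicle. There PGE2 was also above Vehicle, by 0.69 ± 0.13 (log2, SE; adjusted p = 7.16e-05). Errfi1, an inhibitor of the receptor, had 17.1 and 16.6 CPM in AA, 12.3 and 12.4 in PGE2 and 11.5 and 12.1 in Vehicle.

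Genes of the fetal and regenerative epithelium had 8 members among 151 peaks (5.3%): 4 at Areg, 2 at Plaur and 1 each at Cd44 and Krt23. Plaur, the urokinase receptor, had a member inside the gene (chr7:24461268-24462165) with 48.8 and 49.5 CPM in AA, 36.7 and 36.2 in PGE2 and 34.95 and 36.0 in Vehicle, where AA stood apart and the other 2 groups were close. Krt23, a keratin gene, had 8.08 and 8.89 CPM in AA, 5.75 and 5.16 in PGE2 and 2.73 and 3.57 in Vehicle, with PGE2 above Vehicle by 0.83 ± 0.19 (log2, SE; adjusted p = 0.00104, and 0.0524 without Vehicle replicate 1). On this list PGE2 was called higher than Vehicle at 53 peaks and lower at 2 (35.1% and 1.32%, against 14.3% and 10.6%). Of the 8 members 1, at Krt23, was among those called higher.

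Dusp10 and Spred2 were on none of the lists and are set side by side here after their values were seen. Dusp10, a phosphatase of the kinases JNK and p38, had 3 members among 4 peaks. The one with the widest margin (chr1:184084714-184085264) had 4.21 and 3.31 CPM in AA, 1.15 and 1.196 in PGE2 and 0.780 and 0.620 in Vehicle. At the member of 33.2 and 35.6 CPM in AA, PGE2 had 25.2 and 24.5 and Vehicle 21.5 and 21.9, and PGE2 was above Vehicle by 0.24 ± 0.09 (log2, SE; adjusted p = 0.0387), a call lost by DESeq2 (0.343) and without any one PGE2 or Vehicle library (0.0744 to 0.193). The remaining Dusp10 member had 13.5 and 12.8 CPM in AA, 7.51 and 7.55 in PGE2 and 4.60 and 5.12 in Vehicle. There PGE2 was above Vehicle by a larger difference (log2 0.68 ± 0.16 SE, edgeR adjusted p = 0.00104, DESeq2 adjusted p = 0.0552). Spred2, an inhibitor of Ras signalling, had a member with 6.46 and 7.19 CPM in AA, 2.83 and 2.99 in PGE2 and 2.89 and 2.71 in Vehicle.

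The widest margin of all was near Il1f10, which encodes interleukin 38, an epithelial cytokine of the interleukin 1 family. The peak (chr2:24306229-24306950, 12424 bp from a gene end) had 4.92 and 5.09 CPM in AA, 1.69 and 1.64 in PGE2 and 1.17 and 1.09 in Vehicle. Its lower AA value was 2.92 times the highest other one. PGE2 and Vehicle were not called apart there (log2 0.60 ± 0.33 SE, adjusted p = 0.19). Among NF-kB and defence genes 4 of 83 peaks were members (4.82%), 2 at the chemokine gene Ccl20 and 1 each at Birc3 and Nos2. The Ccl20 member 972 bp from a gene end had 7.16 and 7.76 CPM in AA, 3.45 and 3.36 in PGE2 and 3.67 and 4.34 in Vehicle. At the other Ccl20 member PGE2 was called above Vehicle by edgeR (log2 0.55 ± 0.21 SE, adjusted p = 0.0485), but not by DESeq2 (0.329). The Nos2 member, 134 bp from an end of the nitric oxide synthase gene, had 23.3 and 22.5 CPM in AA, 15.9 and 17.3 in PGE2 and 13.6 and 13.9 in Vehicle. PGE2 was called above Vehicle by edgeR there too (0.32 ± 0.11, adjusted p = 0.0257).

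Genes that make, carry or break down eicosanoids held members at about the background share, 4 of 164 (2.44%). Hpgd, which inactivates PGE2, had a member 9020 bp from a gene end (chr8:56285225-56285839) with 3.86 and 4.85 CPM in AA, 2.07 and 1.79 in PGE2 and 1.17 and 1.32 in Vehicle. Slco2a1, the prostaglandin uptake carrier, had one inside the gene with 5.198 and 6.14 CPM in AA, 2.76 and 2.84 in PGE2 and 1.64 and 2.09 in Vehicle. In both the 3 groups did not overlap, yet PGE2 against Vehicle was not called (log2 0.67 ± 0.32 SE, adjusted p = 0.121 at Hpgd, and 0.63 ± 0.26, adjusted p = 0.0733 at Slco2a1). The other 2 were at Pla2g4a, the phospholipase that frees AA, and at Tbxas1, the thromboxane synthase gene, at a place that also lies inside Hipk2. The Pla2g4a member had 3.02 and 2.99 CPM in AA, 2.15 and 2.02 in PGE2 and 1.01 and 1.40 in Vehicle. PGE2 was called above Vehicle by edgeR at Pla2g4a (log2 0.83 ± 0.32 SE, adjusted p = 0.0499). Pla2g2e, not on that list, had 26.8 and 26.0 CPM in AA at its promoter, 18.2 and 18.8 in PGE2 and 13.6 and 14.9 in Vehicle, with PGE2 above Vehicle by 0.42 ± 0.10 (adjusted p = 0.00211), a call lost by DESeq2 (0.0911) and without Vehicle replicate 1 (0.0614).

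The remaining lists held few members or 0. Crypt stem cell genes had 4 among 252 peaks (1.59%), at Cdk6, Ephb2, Hopx and Lrig1, and Wnt targets 2 among 180 (1.11%), at Cd44 and Ephb2. The Hopx member, in a gene of reserve stem cells, had 21.3 and 21.3 CPM in AA, 13.5 and 16.2 in PGE2 and 14.2 and 14.3 in Vehicle. YAP and TEAD targets had 3 of 148 (2.03%), immediate early genes 4 of 144 (2.78%, 2 each at Ier3 and Klf6), enteroendocrine markers 2 of 32 (6.25%, at Chga and Gip), and tuft markers 1 of 40 (2.5%, at Sh2d6), immune markers 1 of 18 (5.56%, at Itgam) and endothelial markers 1 of 63 (1.59%, at Cdh5). Goblet markers had 0 of 94, Paneth markers 0 of 30, proliferation genes 0 of 36, interferon and antigen presentation genes 0 of 45 and stromal markers 0 of 24. Over all 22 lists 64 of 2139 peaks were members (2.99%), and some genes are on several lists.

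**Figure D4:**
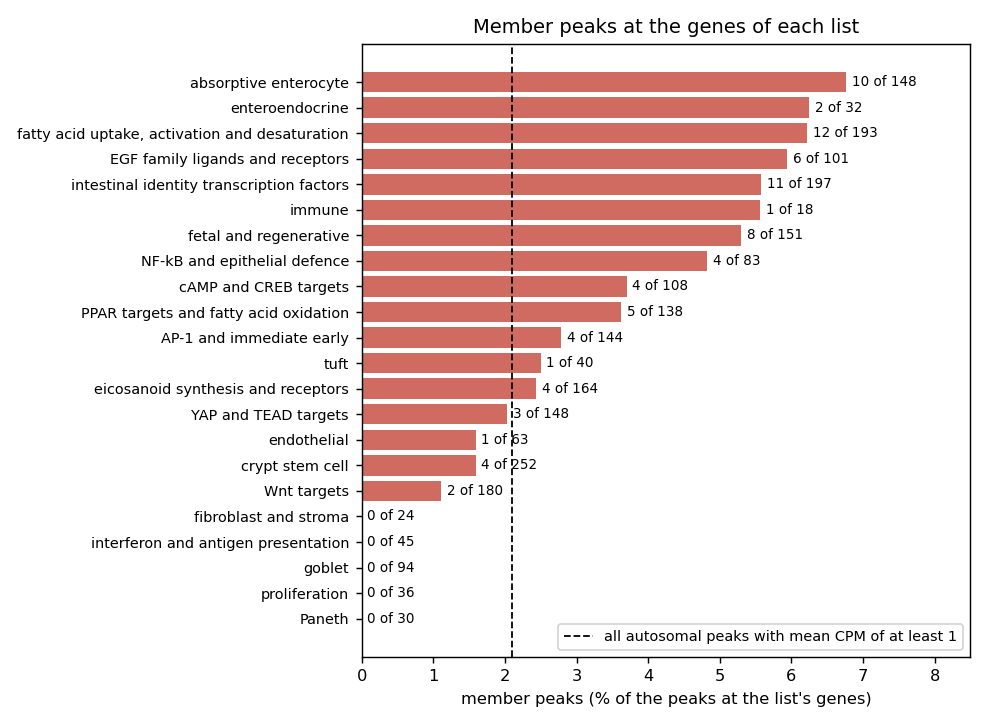
Share of the peaks at each list's genes that were members (bars, x axis in percent; counts beside the bars), with a dashed line at the 2.1% of all autosomal peaks with a mean of at least 1 CPM. Enterocyte, enteroendocrine, fatty acid, EGF family, identity factor, immune and fetal genes lie between 5.3% and 6.76%, the enteroendocrine and immune bars on 2 members and 1, and goblet, Paneth, proliferation, interferon and stromal genes at 0.

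Most members belonged to none of these groups. Those with a gene within 50 kb were 1226 at 1064 genes, 143 genes had at least 2 and 15 had at least 3. Ccdc71l had the most, 5 among 10 peaks; its strongest had 25.2 and 23.8 CPM in AA, 15.5 and 17.0 in PGE2 and 14.1 and 15.7 in Vehicle. Copb1 (a coat protein of Golgi vesicles), Mrnip, Fam83b and Rbm47 (an RNA-binding protein) had 3 each. The highest CPM of the members with a gene within 50 kb lay inside Nutm1, with 71.2 and 71.0 CPM in AA, 54.0 and 53.9 in PGE2 and 48.2 and 52.6 in Vehicle, and the next after the Isx promoter inside Abca4, a retinoid transporter gene, with 59.7 and 62.9, 44.5 and 42.8, and 37.1 and 38.4 CPM in AA, PGE2 and Vehicle. A member near a gene end with a wide margin was at Gpr137c, where PGE2 and Vehicle coincided (log2 0.01 ± 0.14 SE, adjusted p = 0.988) and AA had 16.8 and 18.3 CPM. At Akr1b10, an aldo-keto reductase gene, AA had 2.81 and 2.83 CPM, PGE2 0.996 and 0.523 and Vehicle 0.858 and 1.01.

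Other genes that the naming rule took for margins above 2 times were Ric8b, Nenf, Leprotl1, Serpinb5, Tpm1, Otogl, Dnm2, Atp10b, Rragc, Ptrh2 and Pkn2, which are on none of the lists. All but the Atp10b and Pkn2 members were narrow peaks of 179 to 415 bp. Serpinb5, the maspin gene, had 3.93 and 4.20 CPM in AA, 1.38 and 1.72 in PGE2 and 0.468 and 1.32 in Vehicle. At the edge of the rule, the members nearest the fold of 1.3 with a mean of at least 5 CPM lay near Rbm24, Cdk6 and Eepd1 and the nearest peaks short of it near Fam114a2, Ahdc1 and Add2. The Cdk6 member had 10.1 and 9.37 CPM in AA, 7.20 and 6.73 in PGE2 and 5.15 and 7.21 in Vehicle, and the Add2 peak, left out, 9.83 and 9.13, 6.74 and 7.03, and 4.06 and 4.50.

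One member (chr3:31038559-31039081, inside Prkci) held the hairpin of the microRNA Mir7008, whose mature forms are printed as RefSeq gives them, with the seed (bases 2 to 8) in capitals.
mmu-miR-7008-5p: uGUGGGAGaugccaggagccguac
mmu-miR-7008-3p: uGUGCUUCuugccucuucucag
The 2 seeds differ. This region had 9.55 and 10.8 CPM in AA, 5.75 and 6.58 in PGE2 and 4.60 and 3.64 in Vehicle, and PGE2 was above Vehicle by 0.63 ± 0.18 (log2, SE; adjusted p = 0.00742), a call lost by DESeq2 (0.14) and without PGE2 replicate 2 (0.101) or Vehicle replicate 2 (0.143). Prkci encodes an atypical protein kinase C of epithelial polarity.

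Some members lay close together. Another member lay within 20 kb of 309 members and within 50 kb of 508, and with gaps of at most 50 kb there were 223 runs of at least 2 and 13 of at least 4. The longest held 6 members among 14 peaks over chr5:91123461-91217331, at and beside Areg. The next run on that chromosome, chr5:91274247-91303496, held 4 of 8 peaks and had no protein-coding gene within 50 kb. A run of 5 members among 6 peaks over chr5:47469395-47552593 also had none. Others lay at Isx, Ccdc71l, Atp2b1, Lmo7, Mrnip and Tbc1d9b, Gm46752 next to Ptprj, and near Nsmce2.

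Peaks outside the set leaned the same way when close to a member. Those within 5 kb of one (1293 peaks) had a median log2 difference of 0.16 for AA over Vehicle and 0.13 for AA over PGE2, and 31.6% and 12.8% were called higher in AA. Of all tested peaks 16.7% and 5.07% were called higher in AA, and 13.8% and 4.88% lower. From 50 to 200 kb the medians were -0.02 and -0.02, and beyond 200 kb they were -0.04 and -0.03, with 14.3% and 3.08% called higher. For PGE2 over Vehicle the medians were 0.05 within 5 kb and -0.02 beyond 200 kb, and 19.3% and 14.6% were called higher. These peaks share libraries with the members. Peaks just under the fold and the 480 left out as high in both treatments count here as outside the set. Read pairs that met several peaks were counted in each, so close peaks may share pairs with a member. Gene-end peaks were 11.5% of those within 5 kb and 19.3% of those beyond 200 kb. The rule used both AA differences, so this lean is a description.

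**Figure D5:**
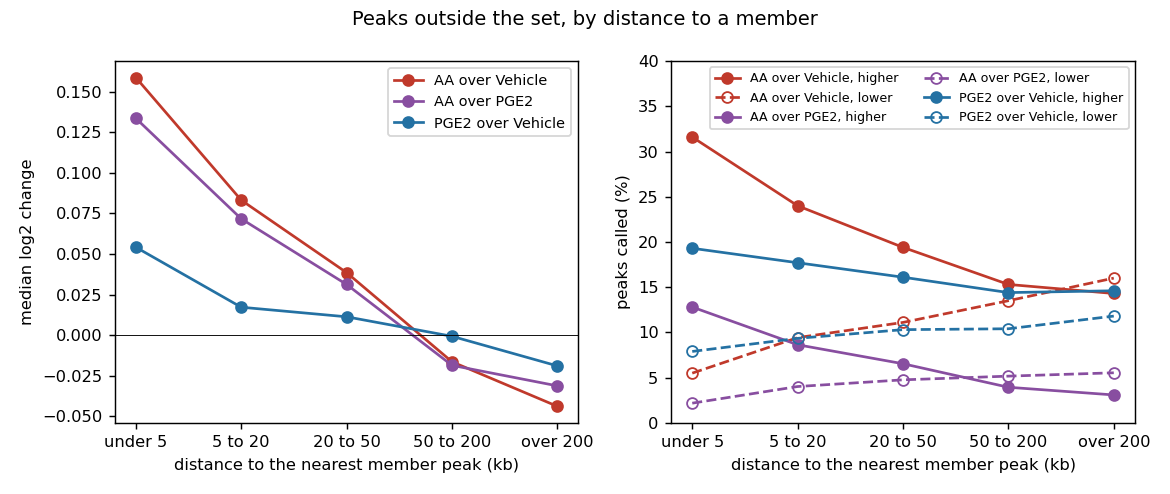
Left, median log2 change of peaks outside the set (y axis) by distance to the nearest member (x axis, kb) for AA over Vehicle, AA over PGE2 and PGE2 over Vehicle; right, the percent of them called higher (filled) or lower (open). The medians for AA fall from left to right, 0.16 and 0.13 within 5 kb and -0.04 and -0.03 beyond 200 kb.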

How the data were processed

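The authors deposited 1 table of raw counts over consensus peaks, with a column for each of the 6 libraries. The command in its header, per the file headers, is featureCounts 1.6.3 in paired mode, with reads cut to their 5′ base and pairs that met several peaks counted in each. Trim Galore, BWA, Picard, SAMtools, MACS2 and build mm10 are named in the submitters' processing notes; how they were set, and whether reads were shifted for the transposase, is not given in the sources used here. A region outside the consensus peaks has no value.

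CPM were taken over column totals. The test was edgeR (4.0.16) with TMM scaling, filterByExpr (89347 peaks kept), all 6 libraries in 1 robust quasi-likelihood fit (3 residual degrees of freedom), and Benjamini-Hochberg adjustment over all peaks tested; the script was tested on simulated data, with a pass mark that was lowered after its first result. DESeq2 (1.42.0) on the deposited counts, other scalings, leaving out each library, and a replicate term were alternatives. The design is 2 libraries against 2 in each contrast. Genes came from a RefSeq table of GRCm38.p6 without strand: each peak's centre was given the closest end of any protein-coding gene up to 50 kb away, and the gene it acts on may be another; a gene-end peak has its edge within 1 kb of an end. This last definition was chosen after values were seen. Exon and UTR annotation was not used here. Of the listed gene names 5 were not matched.

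The members, the gene lists and the motifs were chosen with earlier results of these data known. Named members were, 1 per gene, the 14 with the widest margin (mean of at least 2 CPM) and the 8 with the most counts; the 6 at gene ends with the widest margin; the 8 genes with most members; 2 per list; 3 on each side of the fold; and 5 per direction between PGE2 and Vehicle. Promoter, microRNA, run and neighbour results, and further list members, were added after values were seen.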

Additional observations from a re-analysis of the deposited data

How the results depend on the processing

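With a fold of 1.2 the rule took 3211 peaks and with 1.5 it took 560; leaving out single libraries gave 1737 to 3276 (3251 and 3276 without AA replicate 1 and 2, 2857 without PGE2 replicate 1). TMM-scaled totals gave 1673, of which 1557 were members, and autosomal totals 1758. Calls of AA at members are not reported, since the rule used AA, and their alternatives are not given. DESeq2 called 74 members higher and 0 lower in PGE2 than in Vehicle. Leaving out single libraries, these edgeR counts were 168 to 353 and 0 to 1. With the replicate number as a block they were 376 and 1. The deviations of same-numbered libraries had correlations of 0.005, 0.046 and -0.027. The AA and Vehicle libraries differed little beyond counting error (chi-square per degree of freedom 1.12 and 1.10). These correlations therefore cannot tell whether the numbers pair the libraries. Of the members 2.46% lay within 500 bp and 8.4% within 2 kb of a gene end, and 29.7% had a gene end within 10 kb. Of the 1692 members on chromosomes with listed starts, 1.65% had their centre within 1 kb of a start site. Within 10 kb the lists held 4 (fatty acid), 4 (enterocyte), 5 (identity) and 5 (fetal) members. Single members, those named by rule, at listed genes or holding the microRNA, were followed where PGE2 and Vehicle were called apart (33 members): none changed direction, and DESeq2 lost 24 of the 33 calls, leaving out Vehicle replicate 1 lost 17, PGE2 replicate 2 lost 9, Vehicle replicate 2 lost 8 and PGE2 replicate 1 lost 5. No genome was given, so motifs and GC content of whole peaks were not run. The median member had 29 to 39 reads in each PGE2 and Vehicle library; whether depth limits these calls was not tested.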

Other observations

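On the sex chromosomes, which the rule leaves out, 30 of 1756 peaks with a mean of at least 1 CPM met its other conditions.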
